A study of Mus musculus with 4 samples.

Results

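The 10 genes described here, Hk2, Pfkl, Aldoa, Tpi1, Gapdh, Pgk1, Pgam1, Eno1, Pkm and Ldha, encode the main enzymes of glycolysis. They were chosen by gene name from the 54532 genes listed in both deposited count tables, as the main protein-coding gene of each enzyme and without its pseudogenes. All 10 passed the filter on low counts and were among the 13811 protein-coding genes tested. The data came from primary cortical microglia of male CD1 mouse pups in the first days of life, grown in mixed glial culture and isolated by detaching the astrocyte layer with trypsin. Cells were kept in a serum-free medium that held IL-34, TGFβ2, GM-CSF and cholesterol, and all groups shared this medium. Treatment then lasted 24 h, with EGCG at 1 µM (epigallocatechin gallate, a catechin of green tea) or with its DMSO vehicle, and poly(A) RNA was sequenced in strand-specific libraries. Each group had 2 libraries, which the labels call biological replicates 1 and 2, and the vehicle and EGCG libraries of one replicate number stand in one table. The labels do not say whether libraries of one number came from the same culture.

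Glycolysis splits glucose into pyruvate in the cytosol and yields ATP and NADH, and lactate dehydrogenase turns pyruvate into lactate, which restores NAD+. Hexokinase, phosphofructokinase and pyruvate kinase catalyse the steps that are practically irreversible, and the remaining enzymes work near equilibrium. Microglia are known to raise glycolysis when they are activated by inflammatory stimuli, and several of the enzymes are targets of the transcription factors HIF-1 and MYC. Many glycolytic enzymes also have processed pseudogenes, which are intronless copies of the mRNA elsewhere in the genome.

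For 2 of the enzymes, such copies held a large part of the listed reads, so their sequences are shown first. The windows below are 91 bases of coding sequence on GRCm38, 5′ to 3′, each set against the matching stretch of a processed pseudogene, and the base in capitals is where they differ. Gapdh lies on the minus strand at chr6:125161715-125166467, and its window joins exons 3 and 4 without the intron (chr6:125162971-125163159). Gm13394 lies on the minus strand at chr2:28933610-28934609, with its window at chr2:28934219-28934309. Eno1 lies on the plus strand at chr4:150236721-150248879, with a window in exon 8 (chr4:150246583-150246673), and Gm4735 lies on the plus strand at chr2:80837141-80838442, with its window at chr2:80837821-80837911.
Gapdh: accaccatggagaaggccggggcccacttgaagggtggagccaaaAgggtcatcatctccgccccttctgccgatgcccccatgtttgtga
Gm13394: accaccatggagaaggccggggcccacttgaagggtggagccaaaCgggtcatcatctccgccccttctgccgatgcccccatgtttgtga
Eno1: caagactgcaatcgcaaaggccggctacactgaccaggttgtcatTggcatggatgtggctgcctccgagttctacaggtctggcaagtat
Gm4735: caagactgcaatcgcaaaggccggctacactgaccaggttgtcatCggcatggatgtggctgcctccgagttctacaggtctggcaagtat
Counted from 1 at the 5′ end of each window, with the base of the enzyme gene given before that of the copy, the substitutions are A46C between Gapdh and Gm13394 and T46C between Eno1 and Gm4735. The base at position 46 is the single difference between Gapdh and Gm13394 over 1000 aligned bases. Eno1 and Gm4735 differed at 5 of 1302 aligned bases. A read pair that lies within an aligned stretch and covers no such base matches both places equally well. How such reads were assigned is not given in the sources used here. The deposited length of Gapdh is 4133 bases, so part of the gene lies outside its aligned stretch of 1000.

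Total counts were 33805071 and 36307930 in the vehicle libraries and 34300679 and 54970300 in the EGCG libraries, replicate 1 first, with 97.97% to 98.07% on protein-coding genes. The microglial markers Csf1r and Trem2 were abundant in every library, with 39199 to 132564 and 15744 to 25749 counts. The 7 fibroblast and stromal markers summed to 426 CPM (counts relative to the size of each library) with vehicle and 5.80 with EGCG in replicate 1, and to 161 and 178 in replicate 2. Col1a1, which encodes a collagen chain, had 3962, 4, 1344 and 2040 counts in that order, so EGCG replicate 1 stood apart from the other 3 libraries. Pdgfra did not follow it, with 122, 141, 43 and 95 counts, and made up 4.40 of the 5.80 CPM in EGCG replicate 1. The 7 astrocyte markers summed to 13.8 to 19.4 CPM, and Aqp4 was at 0 counts in EGCG replicate 1. The 7 oligodendrocyte markers summed to 78.2 to 82.0 CPM, and the 4 endothelial markers to 5.74 to 19.7 CPM.

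Levels of different genes were compared as RPKM, the CPM divided by the deposited gene length in kilobases. Averaged over the 4 libraries, Aldoa was highest at 389 RPKM and Pkm followed at 356, then came Pgam1 (195), Pgk1 (188), Ldha (126), Tpi1 (97.5), Eno1 (76.3), Hk2 (20.7), Pfkl (10.5) and Gapdh (9.99). Not every neighbour in that order differed beyond the spread between libraries. Aldoa exceeded Pkm in both libraries of replicate 2 (372 against 262 RPKM with vehicle and 364 against 267 with EGCG). Pkm exceeded Aldoa in both libraries of replicate 1 (453 against 407 with vehicle and 441 against 414 with EGCG). Pgam1 and Pgk1 overlapped, with 151 to 235 and 166 to 210 RPKM, and so did Pfkl and Gapdh, with 7.18 to 13.7 and 3.03 to 25.6. Ldha, at 111 to 137 RPKM, lay above Tpi1, at 91.1 to 107, in every library, and Tpi1 lay above Eno1, at 62.9 to 84.4. These levels leave out the reads listed on copies. Copies of Eno1 held 69.0% to 73.7% of its own count, and those of Gapdh held more than Gapdh itself. The places of Eno1 and Gapdh therefore hold only for counts as listed. Together the 10 genes took 0.435% to 0.565% of the counts on tested genes. The deposited lengths join the exons of all transcripts of a gene, which lowers the RPKM of a gene with long minor transcripts.

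**Figure D1:**
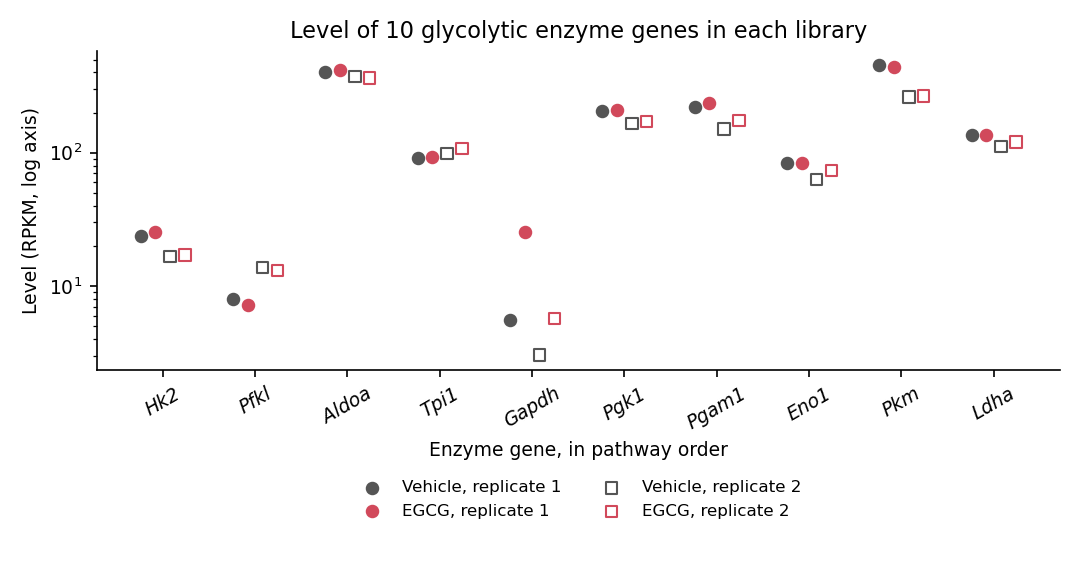
Level of each enzyme gene in the 4 libraries (RPKM, log axis), in pathway order, 1 point per library. Filled circles are replicate 1 and open squares replicate 2, in grey for Vehicle and red for EGCG. Gapdh lies far below the neighbouring enzymes and spreads most, from 3.03 to 25.6 RPKM, and in most genes the points part by replicate and not by treatment.

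The comparison of EGCG with vehicle asked whether the treatment changed the mRNA of these enzymes. The main test was edgeR's quasi-likelihood F test without a replicate term, and a gene was called at an unadjusted p under 0.05. It called 0 of the 10 enzymes, and 16 of 13811 tested genes (0.116%). At an adjusted p under 0.1 there were 0 genes in that test and 1 with DESeq2, and with a replicate term there were 1 and 7, none of them an enzyme. Apart from Gapdh, the fitted log2 fold changes of the enzymes lay between -0.11 and 0.13, with standard errors of 0.16 to 0.43. Their 95% intervals reached down to between -1.30 and -0.37 and up to between 0.52 and 1.16 in this test. With a replicate term the same 9 genes had standard errors of 0.05 to 0.07, and their intervals lay within -0.27 and 0.30. The median fold change of the 10 genes was 0.06 on the log2 scale, and that of all tested genes was 0.01.

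The vehicle and EGCG libraries were also compared within each table, since the tables differed widely. With EGCG, 7 of the 10 enzymes were higher within both tables, 1 was lower and 2 had opposite signs, while 29.9% of all tested genes were higher in both and 20.8% lower in both. Each such difference rests on 1 library a side. In replicate 1 the log2 differences of Ldha, Eno1, Pgk1 and Tpi1 were only 0.0044, 0.0056, 0.0171 and 0.0276. The scaling factors of the library totals there were 0.9924 with vehicle and 0.954 with EGCG. The sign of such small values, and so the count of 7, turns on the normalization. In a fit with the replicate number as a further term, 2 of the 10 genes had an unadjusted p under 0.05, Gapdh and Pgam1, beside 444 of 13811 genes (3.21%). Neither passed an adjusted p under 0.1 (0.995 for both in edgeR).

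**Figure D2:**
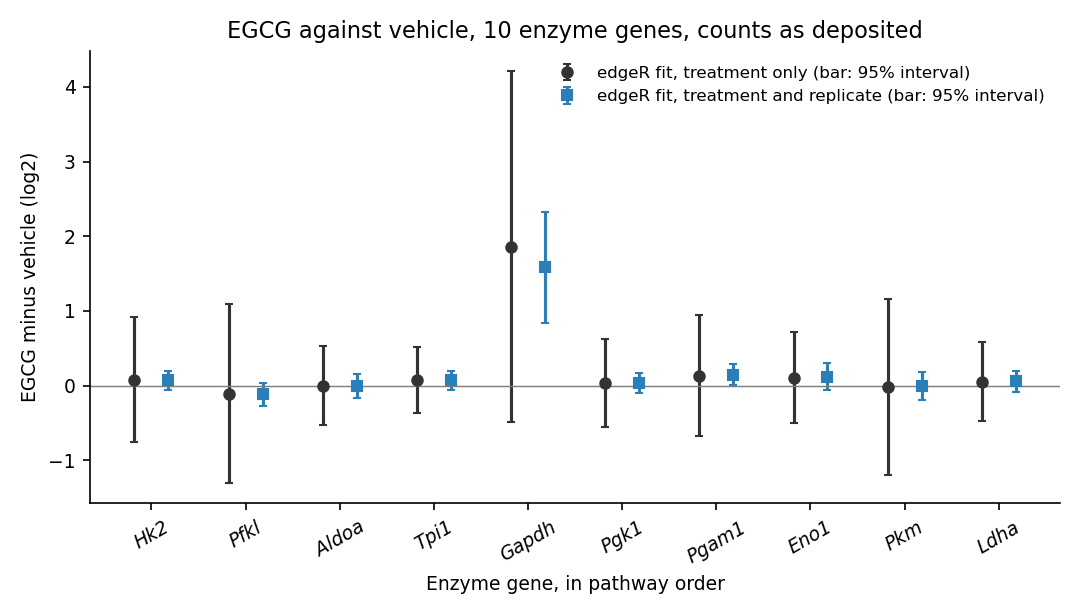
EGCG minus vehicle (log2) for each enzyme gene from 2 edgeR fits, with 95% intervals as bars, black circles for treatment only and blue squares with the replicate as a further term. Every interval of the treatment-only fit holds 0, and in the other fit those of Gapdh (0.84 to 2.33) and Pgam1 (0.0024 to 0.29) do not.

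Hk2, on the minus strand of chr6:82725025-82774454, encodes hexokinase 2, which phosphorylates glucose on entry. In replicate 1 it had 4648 counts with vehicle and 4877 with EGCG, and in replicate 2 it had 3643 and 5619. As CPM these were 142, 152, 99.4 and 102, so both libraries of replicate 1 were above both of replicate 2, and the treatment groups overlapped. Its log2 fold change with EGCG was 0.08 (SE 0.30, 95% interval -0.76 to 0.91).

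Pfkl, on the minus strand of chr10:77986947-78010083, encodes the liver-type subunit of phosphofructokinase, which commits sugar to glycolysis. Its counts were 1753 and 1536 in replicate 1 (vehicle, then EGCG) and 3364 and 4798 in replicate 2, or 53.4, 47.9, 91.8 and 87.0 CPM. It was the 1 enzyme that was lower with EGCG in both tables, by log2 differences of -0.16 and -0.08, and the groups overlapped. The fitted difference of -0.11 (SE 0.43, 95% interval -1.30 to 1.09) was far smaller than the gap between replicates.

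Aldoa, on the minus strand of chr7:126795234-126800751, encodes aldolase A, which cleaves fructose bisphosphate into a pair of triose phosphates. It held 38829 and 38648 counts in replicate 1 (vehicle, then EGCG) and 39694 and 58504 in replicate 2, or 1183, 1206, 1083 and 1060 CPM. The group means were the same to 4 digits, 1133 CPM with vehicle (SD 71.0, n = 2) and 1133 with EGCG (SD 103, n = 2). The interval of the log2 difference ran from -0.53 to 0.53. A further identifier that the tables also name Aldoa held 3 to 10 counts and was not used.

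Tpi1, on the minus strand of chr6:124810586-124814296, encodes triosephosphate isomerase, which interconverts the trioses. Its counts were 8226, 8188, 9999 and 16259 in the same library order, or 251, 256, 273 and 295 CPM. The EGCG library was the higher one in each table, by log2 differences of 0.03 and 0.11, and the groups overlapped. The fitted log2 fold change was 0.07 (SE 0.16, 95% interval -0.37 to 0.52).

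Gapdh encodes glyceraldehyde-3-phosphate dehydrogenase, the step that yields NADH, and is widely used as a reference gene. In replicate 1 it held 760 counts with vehicle and 3392 with EGCG, and in replicate 2 it held 459 and 1299. As CPM these were 23.2, 106, 12.5 and 23.5, so EGCG replicate 1 stood far above the rest and EGCG replicate 2 was barely above Vehicle replicate 1. Within the tables Gapdh was 4.57-fold and 1.88-fold higher with EGCG, log2 differences of 2.19 and 0.91. The treatment-only fit gave a log2 fold change of 1.86 (SE 0.84, 95% interval -0.49 to 4.21, edgeR adjusted p = 1.00), and the fit with the replicate term gave 1.58 (SE 0.29, 95% interval 0.84 to 2.33, adjusted p = 0.995). Leaving out EGCG replicate 1, the library with near-absent collagen transcripts, lowered the treatment-only value to 0.40, and leaving out EGCG replicate 2 raised it to 2.54, then past the unadjusted threshold. The part of the collagen difference in this value was not tested.

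Most reads of Gapdh sequence were listed elsewhere. A search of the coding sequence against GENCODE transcripts found 161 loci at 90% identity or more over at least 200 bases, of which 155 were pseudogenes or retrogenes and 98 had counts. Gm13394, the copy printed above, held 14991 counts with vehicle and 15088 with EGCG in replicate 1, and 14322 and 23062 in replicate 2. These were 457, 471, 391 and 418 CPM for Gm13394, that is 19.7, 4.45, 31.2 and 17.8 times the count of Gapdh itself. Being 1000 bases long, the pseudogene stood at 391 to 471 RPKM, above Aldoa and Pkm in each of the 4 libraries. That order rests on the lengths, since those deposited for Aldoa and Pkm were 2911 and 5001 bases. In CPM the pseudogene lay below both, which stood at 1060 to 1206 and 1310 to 2266. With EGCG it was higher by log2 differences of only 0.04 and 0.10 in the 2 tables, beside the 2.19 and 0.91 of Gapdh. Near-identity did not go with a high count in every copy. Gm7336, which matched Gapdh at 100% over 1020 aligned bases, held 55 and 50 counts in replicate 1 and 57 and 72 in replicate 2, vehicle first.

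Gapdh took 4.58% of the summed count of itself and its copies in Vehicle replicate 1 (exact 95% binomial interval 4.27 to 4.91, counting error only) and 17.6% in EGCG replicate 1 (17.0 to 18.1). In replicate 2 it took 2.999% with vehicle (2.73 to 3.28) and 5.15% with EGCG (4.88 to 5.43). The share was higher with EGCG within both tables, with 1 library a side, and the vehicle libraries also differed from each other by more than their counting intervals. Summed with its copies, Gapdh had 16600, 19297, 15307 and 25240 counts, or 506, 602, 417 and 457 CPM, and the treatment groups overlapped. The summed log2 difference was 0.25 within the table of replicate 1 and 0.13 within that of replicate 2. The treatment-only fit of the sum gave 0.20 (SE 0.23, 95% interval -0.44 to 0.83), and the fit with the replicate term gave 0.19 (95% interval 0.04 to 0.34, edgeR adjusted p = 0.994). Thus the fold change of the Gapdh row and that of the sum differed by more than 1 on the log2 scale, whichever fit was used. Whether the listed split between Gapdh and its copies reflects transcription or the assignment of reads was not tested.

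**Figure D3:**
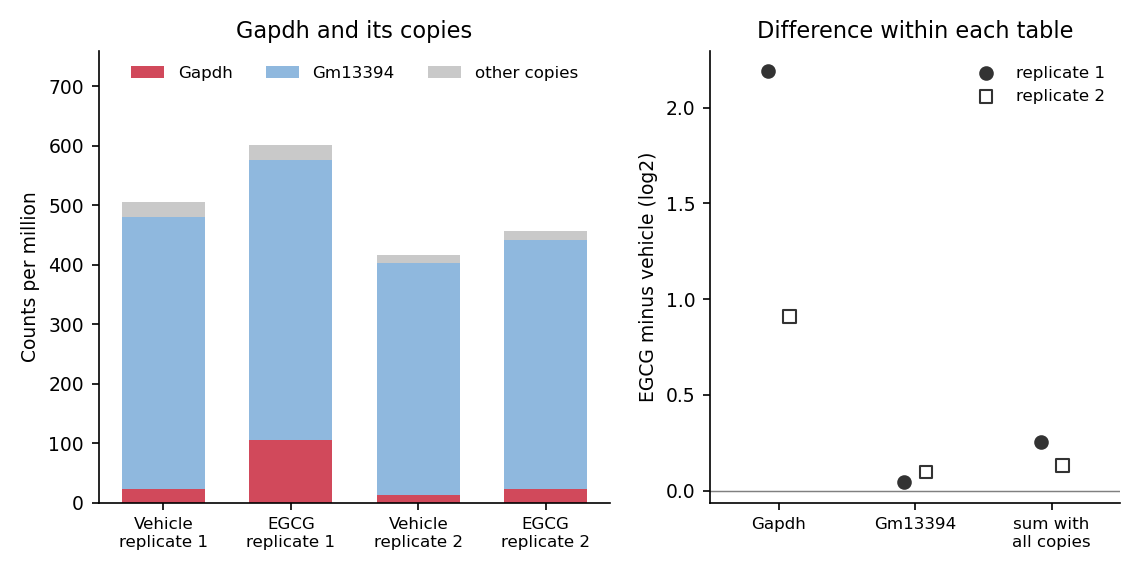
Left, CPM listed on Gapdh (red), on the pseudogene Gm13394 (blue) and on the other copies (grey), stacked for each library from 0. Right, EGCG minus vehicle (log2) within the table of replicate 1 (circles) and replicate 2 (squares) for Gapdh, Gm13394 and the sum over all copies. Gm13394 makes up most of each bar, and the sum differs by 0.25 and 0.13 where Gapdh alone differs by 2.19 and 0.91.

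Pgk1, on the plus strand of chrX:106187100-106203699, encodes phosphoglycerate kinase, which transfers phosphate to ADP. It had 15247, 15066, 13621 and 21243 counts in the library order used above, or 465, 470, 372 and 385 CPM. Both libraries of replicate 1 lay above both of replicate 2. The log2 fold change with EGCG was 0.03 (SE 0.21, 95% interval -0.56 to 0.62).

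Pgam1, on the plus strand of chr19:41911871-41918664, encodes phosphoglycerate mutase, which moves the phosphate within phosphoglycerate. Its counts were 13324, 13805, 10120 and 17549, or 406, 431, 276 and 318 CPM, so EGCG was higher within each table while the groups overlapped across tables. The log2 differences within the tables were 0.09 and 0.20. The treatment-only fit gave 0.13 (SE 0.29, 95% interval -0.67 to 0.94), and the fit with the replicate term 0.14 (SE 0.06, 95% interval 0.0024 to 0.29, edgeR adjusted p = 0.995). Its pseudogene Pgam1-ps2, identical over the 765 coding bases, held 115 to 207 counts, 1.04% to 1.18% of the count of Pgam1.

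Eno1 encodes enolase 1, which makes phosphoenolpyruvate. It had 14844, 14552, 12409 and 21890 counts, or 452, 454, 339 and 397 CPM, and the EGCG library was level with vehicle in replicate 1 and above it in replicate 2 (log2 differences of 0.01 and 0.23). The treatment-only log2 fold change was 0.11 (SE 0.22, 95% interval -0.50 to 0.72). Its pseudogene Gm4735 held 5201, 5016, 4204 and 7375 counts, and Eno1b, a copy annotated as protein-coding, held 5119, 4899, 4877 and 7767. Eno1 itself took 57.6% to 59.2% of the summed count of all its copies in the 4 libraries, a far steadier share than that of Gapdh. Summed with its copies, the log2 fold change was 0.08 (95% interval -0.53 to 0.70).

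Pkm, on the plus strand of chr9:59656368-59679375, encodes pyruvate kinase M, which makes pyruvate and ATP. It had 74356, 70611, 48020 and 73690 counts, or 2266, 2204, 1310 and 1336 CPM. Both libraries of replicate 1 lay far above both of replicate 2. The vehicle and EGCG libraries of one replicate were nearly level, with log2 differences of -0.04 and 0.03. The treatment-only fit gave -0.01 (SE 0.42, 95% interval -1.19 to 1.16). Gene counts do not separate the Pkm1 and Pkm2 transcripts, which differ by an alternative exon.

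Ldha, on the plus strand of chr7:46841475-46855627, encodes lactate dehydrogenase A, which makes lactate from pyruvate. Its counts were 14794, 14491, 13487 and 21930, or 451, 452, 368 and 397 CPM. The log2 fold change with EGCG was 0.05 (SE 0.19, 95% interval -0.48 to 0.58). Hk2 and Pfkl had no near-identical copy by the definition above, and the copies of Aldoa, Tpi1, Pgk1, Pkm and Ldha held less than 1% of the enzyme's count in every library.

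Some reads may also be shared with overlapping genes. Iffo1, on the strand opposite to Gapdh, held 1611, 1628, 1815 and 2605 counts, and AC160637.1, on the strand of Pkm, held 2893, 2492, 1846 and 2482. Fam57b and Spsb2 overlap Aldoa and Tpi1 from the other strand with 593 to 954 and 593 to 905 counts. The libraries were strand-specific, but whether the counting used strand is not given in the sources used here.

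Between the replicates most of the enzymes differed. For Gapdh as listed, the replicate difference (-1.58) and the treatment difference (1.58) of the fit with both terms were equal in size. In an edgeR fit of treatment and replicate, 7 of the 10 genes were lower in replicate 2 at an adjusted p under 0.1, where 25.7% of the 13811 tested genes were. A further 2 were higher, where 27.7% of the tested genes were, so most tested genes passed in one direction or the other. The median difference, replicate 2 minus replicate 1, was -0.31 for the 10 genes and 0.01 for all tested genes on the log2 scale. The 10 enzymes each kept their direction in the vehicle and in the EGCG libraries. The libraries of one replicate number stand in 1 table, and the labels do not say whether they share a culture. If they do, the standard errors and p-values of the replicate difference do not measure spread between cultures. Culture and table cannot be told apart here.

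Pkm had a log2 difference of -0.76 (SE 0.07, edgeR adjusted p = 0.00117), -0.79 with vehicle and -0.72 with EGCG. Hk2 stood at -0.55 (SE 0.05) and Pgam1 at -0.50 (SE 0.06). Pgk1, Eno1 and Ldha stood at -0.31, -0.31 and -0.24. Gapdh as listed stood at -1.58 (SE 0.29, edgeR adjusted p = 0.01), a value that shrank to -0.34 (SE 0.06, adjusted p = 0.00809) when it was summed with its copies. Pfkl was higher in replicate 2 by 0.82 (SE 0.06, edgeR adjusted p = 0.000515), and Tpi1 by 0.16 (SE 0.05, adjusted p = 0.0498), a call that DESeq2 did not make (adjusted p = 0.134). Aldoa, at -0.16 (95% interval -0.32 to 0.01, adjusted p = 0.105), was not called, although DESeq2 did call it (adjusted p = 0.0233), as did edgeR with a minimum of 10 counts in every library (adjusted p = 0.0233). Summed over the 10 genes, the level was 5692 and 5779 CPM in replicate 1 and 4223 and 4401 CPM in replicate 2. Most of that drop was Pkm alone, with 2266 and 2204 CPM in replicate 1 and 1310 and 1336 in replicate 2, vehicle first. In bulk RNA, fewer cells of a type and less RNA per cell cannot be told apart.

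**Figure D4:**
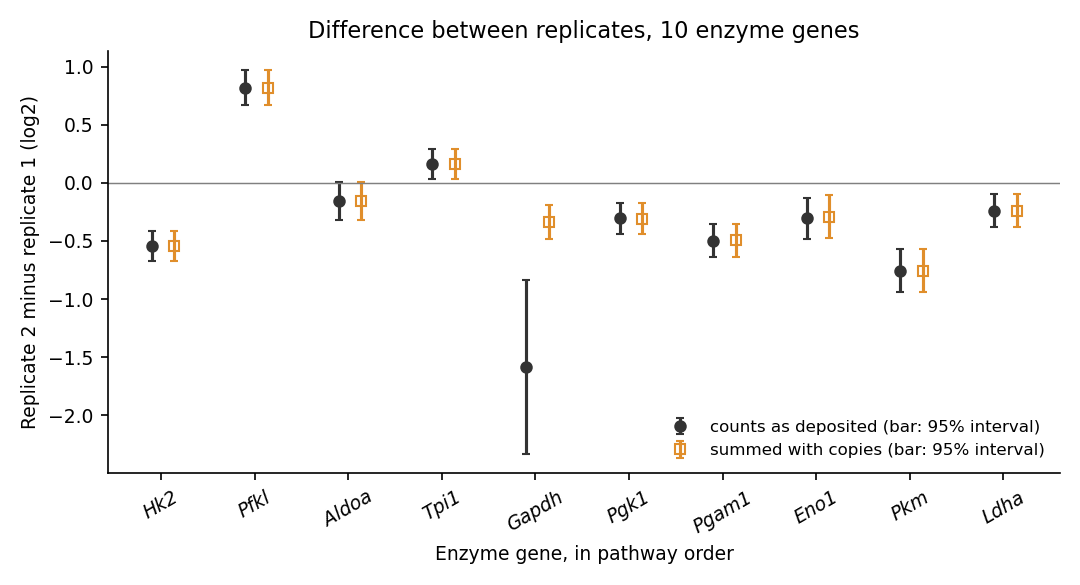
Replicate 2 minus replicate 1 (log2) for each enzyme gene with 95% intervals, as deposited (black circles) and summed with its copies (orange squares). Pfkl (0.82) and Tpi1 (0.16) lie above 0 and the other 8 below it, and the sum moves Gapdh from -1.58 to -0.34.

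Cell type markers also differed between the replicates, and some are named here after their values were seen. The microglial markers Csf1r and Cx3cr1 were higher in replicate 2, by 0.96 and 1.20 on the log2 scale, and Itgam and Tmem119 were lower, at -1.28 and -1.41. Pecam1, an endothelial marker that some myeloid cells also express, had 2 and 3 counts in replicate 1 and 580 and 741 in replicate 2. The other endothelial markers did not follow it. Of the 3 tested, 1 was higher and 2 were lower in replicate 2 at an adjusted p under 0.1, with a median log2 difference of -0.79. Of all tested genes, 27.7% were higher. The 6 markers of dividing cells summed to 204 (vehicle) and 219 CPM (EGCG) in replicate 1 and to 141 and 155 CPM in replicate 2. At an adjusted p under 0.1, 6 of 6 were lower in replicate 2, where 25.7% of all tested genes were. In the treatment comparison with the replicate term, Trem2 and Pcna were higher with EGCG and Cdh5 lower at an unadjusted p under 0.05 in edgeR. These were 1 of 8 microglial, 1 of 6 dividing-cell and 1 of 3 endothelial markers tested, beside 3.21% of all tested genes. No marker passed an adjusted p under 0.1. The part of the markers in the enzyme differences was not tested.

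The rest of the pathway was taken from 7 lists that named 91 genes, of which 79 were tested. In the treatment-only fit none of the 79 had an unadjusted p under 0.05, beside 0.116% of all tested genes. In the fit with the replicate term 1 of the 79 did, beside 3.21% of all tested genes, which is no more than the general share. It was Slc2a6, a transporter of the glucose transporter family, with 997, 1100, 1650 and 2743 counts. Its log2 differences within the tables were 0.18 and 0.14 (edgeR adjusted p = 0.995). The median treatment-only log2 fold changes of the lists ran from -0.02 for HIF and MYC regulators to 0.06 for glucose and lactate transport. Between replicates, 26 of the 79 were higher in replicate 2 and 29 lower at an adjusted p under 0.1. Of all tested genes, 27.7% were higher and 25.7% lower, and the counts per list below stand beside these same shares.

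The other glycolytic enzymes and isoforms comprised 14 tested genes, with 3 up and 5 down in replicate 2. Gpi1, which encodes glucose-6-phosphate isomerase between hexokinase and phosphofructokinase, stood at 414 and 417 CPM in replicate 1 and 429 and 439 in replicate 2, vehicle first. Hk3, a hexokinase of myeloid cells, stood at 410, 441, 321 and 342 CPM, and was lower in replicate 2, at -0.36. Among 9 transport genes, 4 were higher and 3 lower in replicate 2. Slc2a1, the glucose carrier GLUT1, was lower, at -0.86 (225, 209, 113 and 128 CPM). Bsg, a chaperone of the lactate carriers, was lower, at -0.24. The lactate exporter Slc16a3 was not called, with 75.8, 62.2, 57.3 and 60.7 CPM.

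The list for control of glycolytic flux, which also holds genes of gluconeogenesis, comprised 9 tested genes, with 3 higher and 2 lower in replicate 2. Pfkfb3, whose product makes the fructose bisphosphate isomer that activates phosphofructokinase, was higher in replicate 2 by 1.32 on the log2 scale (139, 145, 354 and 357 CPM). Pfkfb4, a related enzyme, was higher by 0.51, and Pck2 was not called. In the pentose phosphate pathway, which branches off at glucose-6-phosphate, 6 of 7 genes were lower and 1 higher. Pgd and Tkt stood at -1.04 and -0.88, and Taldo1 at -0.24. Of the 12 genes for pyruvate entry into mitochondria, 4 were higher and 5 lower, with Dld, a subunit of pyruvate dehydrogenase, lower, at -0.36 and Pdha1 and Pdhb not called.

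Of 12 HIF and MYC regulators, 4 were higher and 4 lower in replicate 2. Hif1a, which encodes the oxygen-regulated subunit of HIF-1, stood at 209 and 185 CPM in replicate 1 and 401 and 411 in replicate 2, a difference of 1.05 on the log2 scale. Arnt, its partner, was higher by 0.42, and Mlxip, a glucose-sensing factor, was lower, at -0.52. The 16 hypoxia-responsive genes outside glycolysis split into 7 higher and 4 lower, with P4ha1 higher by 0.23, Bnip3l lower, at -0.29 and Ero1l not called. Genes of these lists named after their values were seen include Myc and Epas1, which were lower in replicate 2, at -0.32 (edgeR adjusted p = 0.0467) and -0.66. Bnip3 and Vegfa, which respond to hypoxia, were higher by 1.30 and 1.27, and Vegfa differed by 0.85 with vehicle and 1.71 with EGCG. The part of these genes in the enzyme differences was not tested.

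HIF-1 binds the letters ACGTG or GCGTG, so the promoter windows of the 10 enzymes were searched for both on either strand (also read as CACGT and CACGC), where the letters CACGTG count as 2 matches to ACGTG. The windows were RefSeq sequences on GRCm38.p6, 300 bases from 250 before to 50 after the gene start, and the window nearest to the deposited gene start was used. That of Ldha began from a transcript start 4329 bases inside the deposited gene and that of Gapdh from one 694 bases inside it, while the others lay within 304 bases. ACGTG was found in 5 of the 10 windows and GCGTG in 5, with either in 7, while 19.6%, 32.4% and 43.8% of all 32851 windows held them. ACGTG occurred in Hk2, Gapdh, Pgk1, Pgam1 and Ldha and not in Pfkl, Aldoa, Tpi1, Eno1 or Pkm. Those of Pgk1 (chrX:106186850-106187149, plus strand) and Ldha (chr7:46845554-46845853, plus strand), which were lower in replicate 2, and Pfkl (chr10:78009758-78010057, minus strand), which was higher, are printed 5′ to 3′ with matches in capitals.
Pgk1: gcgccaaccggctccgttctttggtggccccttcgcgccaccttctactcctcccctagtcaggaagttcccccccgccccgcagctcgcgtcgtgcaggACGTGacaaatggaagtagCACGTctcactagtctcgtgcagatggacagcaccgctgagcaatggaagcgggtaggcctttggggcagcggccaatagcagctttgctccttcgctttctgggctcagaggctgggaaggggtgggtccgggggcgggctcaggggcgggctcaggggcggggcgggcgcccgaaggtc
Ldha: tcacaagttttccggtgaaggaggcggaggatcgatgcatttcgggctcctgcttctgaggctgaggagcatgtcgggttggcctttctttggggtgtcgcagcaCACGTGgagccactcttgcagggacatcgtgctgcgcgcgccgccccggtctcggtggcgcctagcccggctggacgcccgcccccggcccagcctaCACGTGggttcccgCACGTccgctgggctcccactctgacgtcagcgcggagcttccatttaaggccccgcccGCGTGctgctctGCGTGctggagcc
Pfkl: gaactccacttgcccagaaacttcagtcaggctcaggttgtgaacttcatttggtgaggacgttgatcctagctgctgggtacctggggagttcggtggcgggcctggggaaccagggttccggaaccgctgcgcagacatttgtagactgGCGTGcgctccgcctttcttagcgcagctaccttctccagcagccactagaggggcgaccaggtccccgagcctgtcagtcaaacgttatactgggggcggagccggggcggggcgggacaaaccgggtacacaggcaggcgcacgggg
Pgk1 held 2 matches to ACGTG, Ldha 5 to ACGTG and 2 to GCGTG, and Pfkl 1 to GCGTG. A match describes these letters alone, and Aldoa, Tpi1 and Pkm held neither motif in this window.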

How the data were processed

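RNA was sequenced from 4 libraries of primary mouse microglia, 2 treated with EGCG and 2 with vehicle. Per the labels and the study's methods, the authors filtered reads for adapters and quality and aligned them with HISAT2 to GRCm38.p6 (named in the submitters' processing notes). The deposited counts are raw whole reads per gene, in 1 table per replicate with a vehicle and an EGCG column, and the deposited gene length is in bases. The counting program, the annotation and the treatment of multi-mapping reads are not given in the sources used here. Which table holds which replicate was taken from the submission sheet of the study.

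The tables were joined by Ensembl identifier. Separately assembled loci (697 and 329) were left out. Protein-coding genes whose counts totalled 10 or more in the 4 libraries were tested in R 4.3.3 with edgeR 4.0.16 (TMM, quasi-likelihood test, Benjamini-Hochberg adjustment), and with DESeq2 1.42.0 as an alternative. CPM and RPKM used TMM-scaled totals, and log2 differences per table a prior count of 2. Copies were found with BLAST 2.17.0 and summed with the enzyme if pseudogenes, or if protein-coding and aligned over 90% of its coding sequence. The fits were run on simulated counts with known changes, and recovery of these changes was required only of the fit with the replicate term. The genes, lists and tests were chosen with earlier results of these data known. Genes named are the 10 enzymes and, of each other list, those at an unadjusted p under 0.05 in either fit and the 3 of highest mean CPM, with copies at 1% or more of an enzyme's reads in any library. Most markers, and the smaller copies of Gapdh other than Gm7336, are given as sums only. Replicates are biological per the labels, and intervals on shares cover counting error only. Other normalizations, filters, tests and libraries left out in turn were tried.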

Additional observations from a re-analysis of the deposited data

How the results depend on the processing

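With 2 libraries per group, the count of called enzymes turned on Gapdh, on the test used and, in edgeR, on whether the replicate was in the model. The count of enzymes at an unadjusted p under 0.05 was 0, and it was 2 with the replicate block in edgeR, 1 with DESeq2, 1 with DESeq2 and the block, 1 with edgeR's likelihood ratio test, and 2 with the block once enzymes were summed with their copies, a combination chosen after seeing the data. The single call was Gapdh each time. Leaving out 1 library gave 0 to 1 enzymes, the 1 being Gapdh without EGCG replicate 2, and Gapdh then ranged from 0.40 to 2.54 on the log2 scale. Among all tested genes, 16 were called, against 444 with the block, 153 with DESeq2 and the block, 78 with the likelihood ratio test, 3 with at least 10 counts in every library, 35 over all biotypes, 444 with the block and summed copies, and 8 to 131 with 1 library left out (8 without EGCG replicate 1, 131 without EGCG replicate 2, 57 without Vehicle replicate 2). Of the other pathway genes 0 were called, against 1 with the block, 1 with the likelihood ratio test, 1 with the block and summed copies, and 0 to 1 with 1 library left out. The labels do not say that libraries of one number share a culture, and with 2 pairs the numbers alone do not show it. The deviations of Vehicle and EGCG replicate 1 from their group means correlated at 0.641 across genes. Of 160 values of single enzymes under the alternatives, 152 stayed on their side of the threshold, 8 passed it and 0 reversed, though 27 uncalled ones took the other sign. The split of the genes called, higher to lower, was 4 to 12, 4 to 12 with DESeq2 size factors, 2 to 11 with upper-quartile factors and 3 to 14 with total counts. Between replicates 9 enzymes were called, and 9 or 10 under each alternative, but DESeq2 gained Aldoa and lost Tpi1. The cause of these changes was not tested.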
